A study of Mus musculus with 2 samples.

Results

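Acta2, Tagln, Myl9, Tpm1, Tpm2, Myh11, Cnn1, Col8a1, Postn and Cthrc1 are 10 of the 27998 genes in the count tables and are described here as the genes of contractile cells and myofibroblasts. They were chosen by name with their counts by cell class and diet in these libraries already known, so every value below is a description and none is a test. The 7 contractile genes encode smooth muscle actin (Acta2), the actin-binding proteins transgelin (Tagln) and calponin (Cnn1), a myosin light chain (Myl9), the smooth muscle myosin heavy chain (Myh11) and 2 tropomyosins (Tpm1, Tpm2). The 3 matrix genes encode a short-chain collagen (Col8a1), the matricellular protein periostin (Postn) and a secreted protein of remodelling tissue (Cthrc1).

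The study profiled single cells of the stromal vascular fraction of mouse epididymal fat, the cells left once adipocytes are removed. One library came from C57BL/6 mice kept on a low-fat diet (LFD) and the other from such mice kept on a high-fat diet (HFD), both for 24 weeks from 6 weeks of age. The diets are those of the sample titles and characteristics, while the treatment text in the labels names the low-fat diet for both samples. The methods describe the mice as male C57BL/6J and no source used here gives the number of animals per library. With 1 library per diet there is no replicate check, and diet cannot be told apart from any other difference between both libraries.

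Smooth muscle cells and pericytes, the mural cells of vessels, carry actin filaments built from smooth muscle isoforms and contract with them. Fibroblasts express few of these genes at rest, and when activated can turn on smooth muscle actin and transgelin together with matrix genes such as periostin, a state called the myofibroblast. Mesothelial cells, which line the surface of visceral fat, can express contractile genes too.

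RNA was counted by unique molecular identifiers (UMIs, each standing for 1 captured RNA molecule). Depth was alike, since 7356278 UMIs fell on 1113 LFD barcodes (median 6197) and 8412325 on 1144 HFD barcodes (median 6486). No barcode sequence occurred in both. Barcodes with at least 200 genes, 1057 in LFD and 1117 in HFD, were classed by raw UMIs. In LFD, 37.6% of barcodes had at least 5% mitochondrial UMIs, and in HFD 43.5%.

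Fibroblasts were barcodes with at least 10 UMIs of Dcn, the proteoglycan decorin. The rule took 388 barcodes in LFD and 311 in HFD, of which 8 and 13 met the endothelial or mural rule too. The fibroblasts that met no other rule were split by the sum of Pi16, Dpp4 and Sema3c, genes of a progenitor-like state, into Pi16-high (sum of at least 3) and Pi16-low barcodes. Pi16-low fibroblasts numbered 207 in LFD and 212 in HFD. Endothelial barcodes needed a sum of Cdh5 and Cldn5 of at least 3, and mural barcodes a sum of Rgs5, Kcnj8, Abcc9 and Notch3 of at least 5. Few barcodes lay near the Dcn limit, with 2 LFD and 4 HFD barcodes at 8 or 9 UMIs and 3 and 2 at 10 or 11. More lay near the mural limit, with 13 LFD and 21 HFD barcodes at a sum of 3 or 4 and 5 and 15 at 5 or 6. Near the endothelial limit, 38 LFD and 62 HFD barcodes had a sum of 1 or 2, and 13 and 16 a sum of 3 or 4. Of the fibroblasts, 83 in LFD and 70 in HFD had a Pi16, Dpp4 and Sema3c sum of 1 or 2, and 28 and 21 a sum of 3 or 4.

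The marker check met the class names in part only. Barcodes that passed the mural rule alone numbered 5 in LFD and 6 in HFD, while 52 and 98 barcodes met both the endothelial and the mural rule, and these are called endothelial-and-mural barcodes below. A doublet caller marked 1 of the 52 and 3 of the 98. It also marked 4 of 7 LFD and 8 of 12 HFD fibroblast-rule barcodes that met the mural rule. The endothelial-and-mural barcodes were deep, at medians of 13417.5 and 9646.5 UMIs, against 4413 and 3352 in endothelial barcodes. With so few mural-only barcodes from which to simulate pairs, the caller cannot settle whether they hold more than 1 cell, and this was not tested. Of 6 smooth muscle genes, 3 were almost undetected in both libraries together, with 3 UMIs of Cnn1, 1 of Actg2 and 3 of Myocd, while Myh11 had 293, Des 813 and Lmod1 110. A second gap in the labels concerned fibroblasts, since all barcodes with at least 5 UMIs of the mesothelial genes Msln and Upk3b, 28 in LFD and 14 in HFD, passed the Dcn rule. They are called mesothelial-marker barcodes and are given apart from the others.

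Acta2, the gene by which myofibroblasts are usually recognised, was held among barcodes of the fibroblast rule mainly by those with mesothelial markers or by 1 cycling barcode. The LFD barcodes of the fibroblast rule held 145 Acta2 UMIs, of which 133 (91.7%) lay in mesothelial-marker barcodes and 3 (2.07%) in the 351 barcodes without mesothelial, mural, endothelial or cycling markers. In HFD they held 206, of which 106 (51.5%) lay in mesothelial-marker barcodes, 68 (33.0%) in 7 cycling barcodes, 13 in barcodes that met the mural rule and 19 (9.22%) in 277 barcodes without such markers. Cycling barcodes were those with at least 3 UMIs of 9 cell cycle genes. In both libraries the fibroblasts without other markers, by far the most numerous, thus held a minor share of this transcript.

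A single HFD barcode carried 62 of the 68 Acta2 UMIs of cycling fibroblasts. It had 26915 UMIs in all, 241 of them from cell cycle genes, including 41 of Mki67 and 24 of Top2a, markers of dividing cells. It also held 58 UMIs of Dcn and, of the collagen genes, 253 of Col1a1 and 320 of Col3a1. It held 17 UMIs of Tagln, 18 of Tpm1, 31 of Tpm2 and 56 of Postn as well, 4 UMIs of the 4 mural genes and none of Msln or Upk3b. Apart from this barcode, no HFD fibroblast without mesothelial or mural markers had more than 5 Acta2 UMIs.

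**Figure D1:**
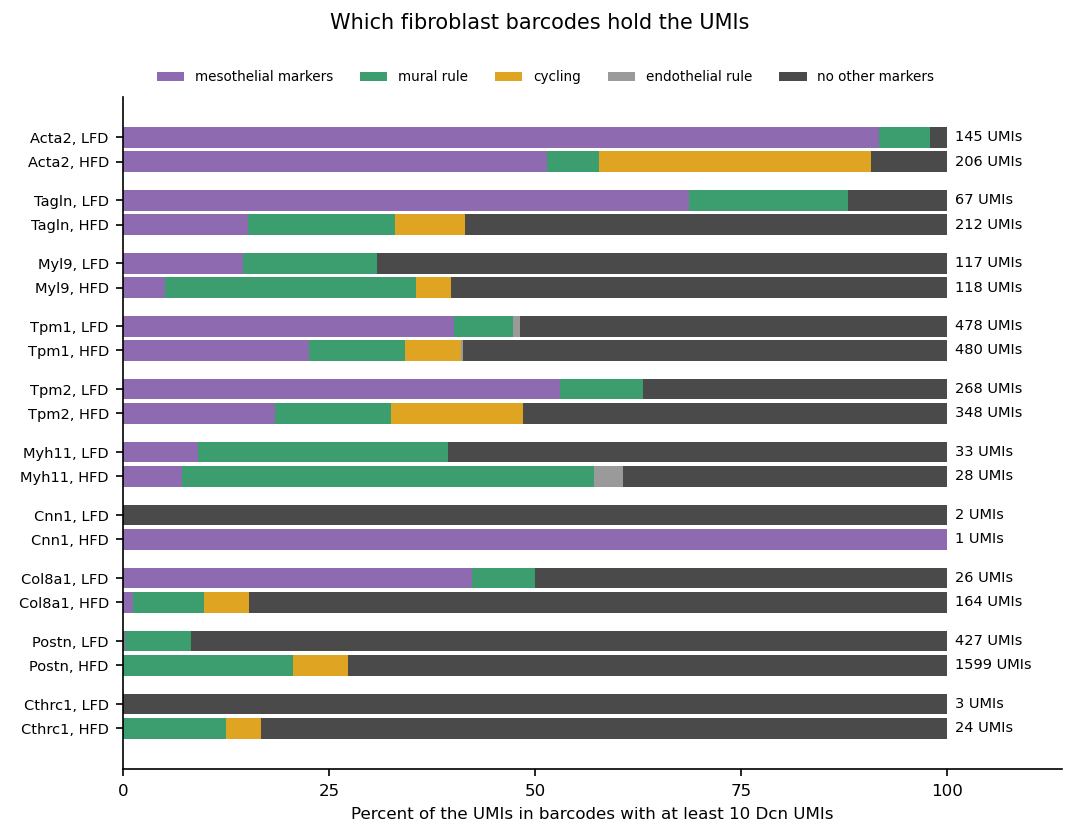
Share of the UMIs of each gene (x axis, percent) that fibroblast-rule barcodes with other markers and with none held in LFD and HFD (bars, one colour per kind of barcode). Mesothelial-marker barcodes held 91.7% of Acta2 UMIs in LFD and 51.5% in HFD, while barcodes without other markers held 91.8% and 72.7% of Postn UMIs.

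Tagln, which usually accompanies Acta2, was divided otherwise. Mesothelial-marker barcodes held 46 of its 67 LFD UMIs (68.7%) and 32 of its 212 HFD UMIs (15.1%), and barcodes without other markers held 8 in LFD and 124 (58.5%) in HFD. Again 1 barcode counted for much. An HFD barcode of 21299 UMIs held 63 Tagln UMIs with 40 of Postn and 16 of Tpm2, but none of Acta2, of the cycling genes, of the 4 mural genes or of Msln and Upk3b, and 6 of the mesothelial list gene Wt1. Acta2 and Tagln were found together in 6 HFD fibroblasts, out of 16 with Acta2 and 25 with Tagln among 284 without mesothelial, mural or endothelial markers, and in none of 352 in LFD.

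In the mesothelial-marker barcodes themselves Acta2 stood at 369 CPM (UMIs of the gene per 1000000 UMIs of the class, 95% interval 309 to 438) in LFD and 682 (558 to 825) in HFD. These intervals are exact Poisson limits, which like all intervals here cover counting error only. Acta2 was seen in 60.7% and 71.4% of these barcodes, against 0.822% and 1.40% of immune barcodes, a class that should lack it (median 5837 and 6338.5 UMIs, against 10699 and 10721.5). Tpm1 stood at 533 and 695 CPM, Tpm2 at 394 and 412, and Tagln at 128 and 206. Tagln was found in 6 of the 28 LFD and 7 of the 14 HFD barcodes, and 2 LFD barcodes held 22 and 19 of its 46 UMIs. Myl9, at 44.6 CPM over both libraries, and Myh11, at 9.70, stood close to their levels of 38.0 and 8.79 in Pi16-low fibroblasts, and Cnn1 had 1 UMI. Of the matrix genes Postn had 1 UMI in LFD and none in HFD and Cthrc1 none, while Col8a1 had 11 and 2, or 30.5 and 12.9 CPM. High Acta2, Tpm1 and Tpm2 with almost no Postn thus described these barcodes in both diets.

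Pi16-low fibroblasts, the larger fibroblast group in HFD, had more UMIs of 8 of the 10 genes in HFD than in LFD. Of the 8 members with at least 20 UMIs in both libraries together, 5 (Acta2, Tagln, Tpm2, Col8a1 and Postn) were at least 2-fold higher in HFD and none at least 2-fold lower, where 2.94% of 9111 genes were at least 2-fold higher and 4.38% lower. The members were chosen on this contrast, so nothing is read from that count. Within the gene and mitochondrial limits of the study's methods it was 1 (Col8a1), with Acta2 and Tagln there under the 20 UMIs needed. Over all barcodes the median log2 CPM ratio of HFD over LFD was 2.26 for the 8 members, and -0.03 for all 9111 genes.

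Acta2 had 2 UMIs in LFD and 82 in HFD, or 1.32 CPM (0.159 to 4.75) and 49.2 CPM (39.1 to 61.1), a ratio of 37.4 with an exact interval of 10.0 to 314. The cycling barcode described above held 62 of the 82, and without it 20 UMIs or 12.2 CPM were left. The share of barcodes with an Acta2 UMI was 0.966% in LFD, close to the immune share, and 6.60% (14 barcodes) in HFD, above it. Tagln had 4 and 118 UMIs, 2.63 and 70.8 CPM, with a ratio of 26.9 (10.2 to 100). Leaving out its highest barcode left 55 UMIs in HFD. Within the gene and mitochondrial limits of the study's methods Tagln had 1 UMI in LFD and 6 in HFD, a log2 ratio of 1.76 (-1.28 to 7.29) that did not differ beyond counting error. Over all barcodes Tagln was seen in 1.93% in LFD, below the 2.47% of LFD immune barcodes, and in 9.43% in HFD, where immune barcodes had 1.40%. After thinning, none of 202 LFD and 6 of 210 HFD barcodes had Tagln (2.86% in HFD, 1.06 to 6.11). Immune barcodes had it in 3 of 360 and 2 of 493 (0.406% in HFD, 0.0492 to 1.46).

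The tropomyosins, which lie along actin filaments of most cell types, were spread over more barcodes. Tpm2 had 37 UMIs in LFD and 153 in HFD, with 31 of the latter in the cycling barcode, and its CPM of 24.3 and 91.8 gave a ratio of 3.77 (2.62 to 5.56). Tpm1 had 124 and 205 UMIs, 81.6 and 123 CPM, and a ratio of 1.51 (1.20 to 1.90). Both were higher in HFD by more than counting error, Tpm1 by less than 2-fold. Within the gene and mitochondrial limits of the study's methods neither was, with log2 ratios of 0.40 for Tpm2 (-0.79 to 1.71) and -0.24 for Tpm1.

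Myl9, Myh11 and Cnn1, of which the last 2 are the most restricted to smooth muscle, showed no difference beyond counting error in Pi16-low fibroblasts. Myl9 had 54 UMIs in LFD and 67 in HFD, 35.5 and 40.2 CPM, and a ratio of 1.13 (0.779 to 1.65). Myh11 had 17 and 11, 11.2 and 6.60 CPM, and a ratio of 0.590 (0.25 to 1.34). Cnn1 had none in either library, which by a floor of 3 UMIs allows up to 1.97 and 1.80 CPM (exact upper limits 2.43 and 2.21). The contractile genes therefore differed among themselves over all barcodes, with intervals above 1 for Acta2, Tagln, Tpm1 and Tpm2 and intervals that held 1 for Myl9 and Myh11.

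**Figure D2:**
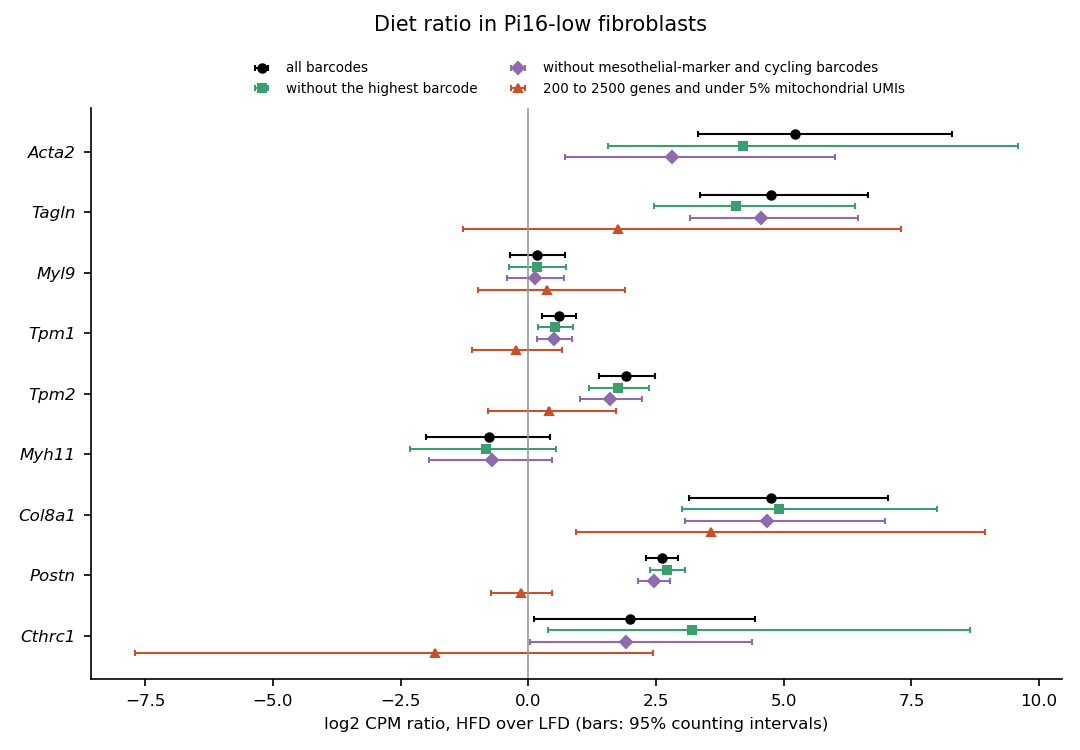
The log2 ratio of CPM, HFD over LFD, in Pi16-low fibroblasts (x axis) for 9 genes (y axis), with 95% counting intervals as bars. Colours and shapes mark all barcodes and narrower sets of them. These are the barcodes left without the one highest in UMIs of that gene in each library, those left without mesothelial-marker and cycling barcodes, and those within the gene and mitochondrial limits of the study's methods. Postn sits at 2.61 over all barcodes and at -0.14 within those limits.

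Postn was the member with the most UMIs in these fibroblasts in HFD, and came after Tpm1 in LFD. It had 98 UMIs in LFD and 655 in HFD, 64.5 CPM (52.3 to 78.6) and 393 CPM (364 to 424), a ratio of 6.10 (4.92 to 7.62). No barcode dominated it, since the highest held 56 of the 655 UMIs. It was seen in 36 LFD barcodes (17.4%) and 118 HFD barcodes (55.7%), at median depths of 7917 and 7573 UMIs. Thinned to 1000 UMIs per barcode 15 of 202 LFD barcodes (7.43%) and 42 of 210 HFD barcodes had it. Immune barcodes had Postn in 0.822% in LFD and 0.8% in HFD, and after thinning in none of 360 and none of 493, which allows shares of barcodes with a UMI of up to 0.833% and 0.609% by a floor of 3 barcodes (exact upper limits 1.02% and 0.745%).

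Col8a1, a collagen of vessel walls and basement membranes, had 3 UMIs in 3 LFD barcodes and 88 in 24 HFD barcodes, with 22 in the highest. Its CPM was 1.97 and 52.8, a ratio of 26.8 (8.86 to 132). Cthrc1 was scarce, with 3 and 13 UMIs, 1.97 and 7.80 CPM and a ratio of 3.95 (1.09 to 21.6). Summed, the 3 matrix genes stood at 68.4 CPM in LFD and 454 in HFD, a ratio of 6.63 (5.40 to 8.22), and the 7 contractile genes at 157 and 382, a ratio of 2.44 (2.10 to 2.84). Within the limits of the methods neither sum differed beyond counting error, at log2 ratios of 0.18 (-0.37 to 0.74) and 0.24 (-0.35 to 0.84). Col8a1 stayed higher in HFD there, with 1 and 21 UMIs and a log2 ratio of 3.57 (0.93 to 8.94). Cthrc1 had 2 UMIs in LFD and 1 in HFD, a log2 ratio of -1.82 (-7.70 to 2.44).

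The size of the Postn difference varied with the number of detected genes. Pi16-low barcodes with more than 2500 genes had 45.0 CPM (33.9 to 58.6) in 132 LFD barcodes and 470 CPM (431 to 512) in 112 HFD barcodes. Those with at most 2500 genes had 144 CPM (104 to 194) in 75 LFD barcodes and 236 CPM (197 to 280) in 100 HFD barcodes. Within the limits stated in the study's methods, 200 to 2500 genes and under 5% mitochondrial UMIs, Postn was no longer higher in HFD, at 166 CPM (119 to 226) in 55 LFD barcodes and 150 CPM (116 to 192) in 75 HFD barcodes. Acta2 had no UMI in LFD and 1 in HFD within them. In LFD the level was thus higher in the barcodes with fewer genes, and in HFD in those with more.

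**Figure D3:**
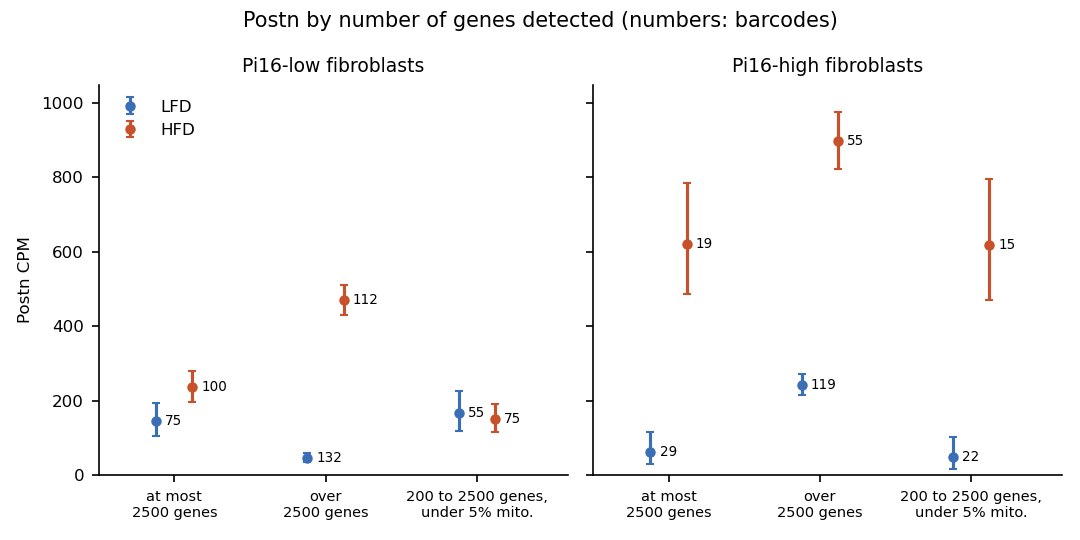
Postn in CPM (y axis) in Pi16-low fibroblasts and Pi16-high fibroblasts without mesothelial markers by number of detected genes and within the limits of the study's methods, in LFD (blue) and HFD (red), with 95% Poisson intervals as bars and the number of barcodes beside each point. In Pi16-low barcodes the intervals of both diets overlap within those limits, at 166 and 150 CPM, and stand apart above 2500 genes, at 45.0 and 470 CPM.

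Gene lists named for other cells differed between the diets in the same Pi16-low barcodes. The 9 measured cycling genes summed to 3.95 CPM in LFD and 178 in HFD, where 241 of the 297 UMIs lay in the cycling barcode described above, the immune list of 6 genes to 59.9 and 172, with Cd3e at 0 in both, and the mural list of 9 genes to 163 and 263. Lists of smooth muscle genes, which hold Myh11 and Cnn1 (163 and 107), and mesothelial genes (226 and 158) were lower in HFD, and the 6 fibroblast genes stood at 54567 and 52043. In the mural, mesothelial and smooth muscle lists a single gene held most UMIs over both diets. Pdgfrb, which the paper places mainly in its MSC1 progenitors, had 494 in the mural list, against 7 of Rgs5 and 2 of Kcnj8. Wt1 had 484 in the mesothelial list, against 10 of Msln, and Des 333 in the smooth muscle list, against 28 of Myh11. Without the mesothelial-marker and cycling barcodes, 4 of 7 tested members were at least 2-fold higher and none lower, beside 2.43% and 4.35% of 8983 genes. The part of the immune and mural genes in the result was not tested.

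Pi16-high fibroblasts without mesothelial markers, 148 barcodes in LFD and 74 in HFD, had higher Postn levels than Pi16-low fibroblasts in both diets over all barcodes, but in LFD lower ones among barcodes of at most 2500 genes, at 63 against 144 CPM. At least 2-fold higher in HFD were 4 of 6 tested members (Tagln, Tpm2, Col8a1 and Postn), and none was lower, beside 2.91% and 4.56% of 7980 genes. Postn had 294 UMIs in LFD and 613 in HFD, 221 CPM (196 to 247) and 854 CPM (788 to 924), a ratio of 3.87 (3.36 to 4.46). It was seen in 39.9% and 79.7% of barcodes, and in 12.8% and 45.9% after thinning. Within the limits of the methods Postn was also higher in HFD here, at 47.5 CPM in 22 LFD barcodes and 618 in 15 HFD barcodes, but the other 3 were not, with Tpm2 at 79.1 and 41.2 CPM, 1 Col8a1 UMI in LFD and none in HFD, and no Tagln UMI in either.

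Col8a1 had 10 and 61 UMIs in Pi16-high fibroblasts, 7.5 and 85.0 CPM, a ratio of 11.3 (5.76 to 24.8), and Cthrc1 had none and 8, 4 of them in 1 barcode, at least 4.95-fold higher against a floor of 3 UMIs and with an exact lower limit of 3.17. Of the contractile genes, Tagln had 4 and 24 UMIs, 3 and 33.4 CPM, with a ratio of 11.1 (3.83 to 44.2), and Tpm2 had 67 and 83, 50.3 and 116 CPM, with a ratio of 2.30 (1.65 to 3.22). Tpm1 was 1.58 times higher (1.22 to 2.06). Acta2 had 1 and 5 UMIs, Myh11 3 and none, and Myl9 27 and 9, or 20.3 and 12.5 CPM with a ratio of 0.619 (0.256 to 1.36). The lower Myl9 value of HFD lay within counting error. With the mesothelial-marker barcodes kept in, 3 of 7 tested members (Tagln, Col8a1 and Postn) were at least 2-fold higher and none lower, beside 2.48% and 4.27% of 8820 genes. Without the mesothelial-marker barcodes the immune list summed to 4.5 CPM in LFD and 279 in HFD, and the cycling list to 2.25 and 132. The platelet list of 4 genes summed to 9 and 57.1, and the smooth muscle list to 97.5 (81.5 to 116) and 36.2 (23.7 to 53.1). Over both diets Pf4 had 41 UMIs of the platelet list and Ppbp none, and immune barcodes held 10286 UMIs of Pf4, so that list does not mark platelets here. Des had 150 UMIs of the smooth muscle list. The part of these lists in the result was not tested.

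**Figure D4:**
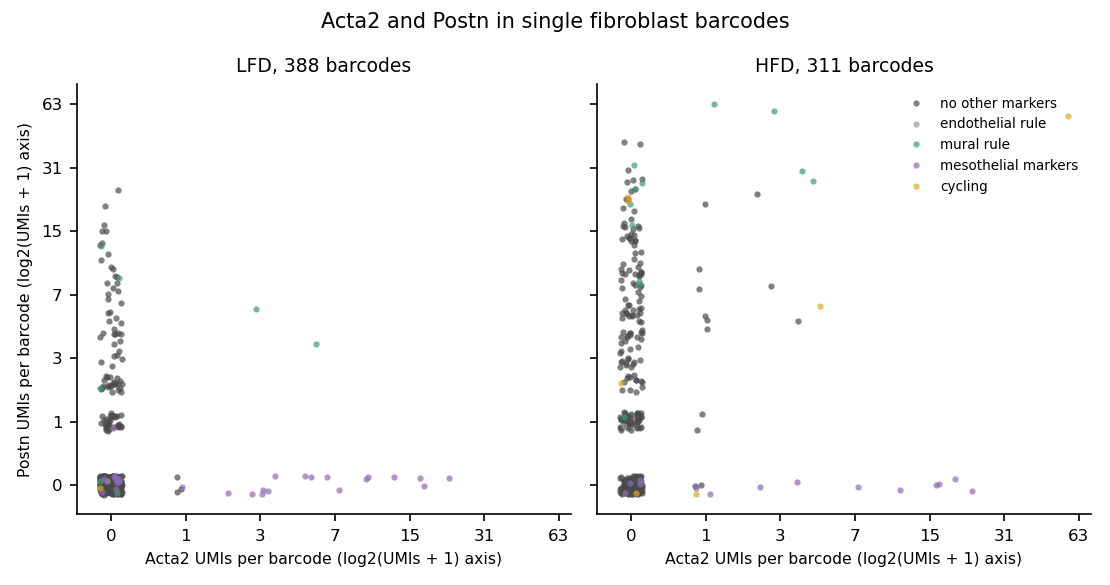
Postn UMIs (y axis) against Acta2 UMIs (x axis), both on a log2(UMIs + 1) scale with small random shifts so that points can be told apart, in each fibroblast-rule barcode of LFD (left) and HFD (right), coloured by the other markers they carried. Mesothelial-marker barcodes hold Acta2 with almost no Postn, barcodes without other markers that hold Postn (95 of 351 in LFD and 172 of 277 in HFD) mostly lack Acta2, and the HFD cycling barcode with 62 Acta2 and 56 Postn UMIs stands alone.

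Postn was common in the HFD fibroblasts with and without contractile transcripts. Of the 284 without mesothelial, mural or endothelial markers, 62.3% had Postn, against 13 of the 16 with Acta2, 19 of the 25 with Tagln, 68.7% of those with Tpm2, 68.1% with Tpm1 and 66.7% with Myl9. After thinning 26.9% had it, against 1 of 2 with Acta2 and 3 of 9 with Tagln, too few to compare. Of the other matrix genes, Col8a1 came with Postn in 27 of 35 barcodes and Cthrc1 in 11 of 15. Barcodes with Tagln were also deeper, at a median of 10067 UMIs against 7862 in those without. In LFD, 27.0% of the 352 barcodes had Postn, against none of the 3 with Acta2 and 1 of the 7 with Tagln. Of the LFD barcodes with Tpm2 40.3% had Postn, with Tpm1 29.9% and with Myl9 20.3%. Col8a1 came with Postn in 5 of 10 there and Cthrc1 in 1 of 2. After thinning 9.80% of LFD barcodes had Postn, against 2 of 12 with Tpm2, 3 of 26 with Tpm1 and none of 5 with Myl9.

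The endothelial-and-mural barcodes had the highest Myl9 and Myh11 levels among the classes of 20 or more barcodes, with little difference in contractile genes between the diets. Myl9 stood at 188 CPM (159 to 221) in LFD and 206 (179 to 236) in HFD, and Myh11 at 116 (93.1 to 142) and 106 (87.5 to 128). Acta2 stood at 74.6 and 83.4 CPM, Tagln at 90 and 69.0, Tpm1 at 237 and 235, and Tpm2 at 179 and 160. Summed, the contractile genes had a ratio of 0.974 (0.880 to 1.08). Cnn1 had no UMI. The 11 barcodes of the mural rule alone stood higher, with 82 contractile UMIs, 3065 CPM (2437 to 3804), and 50 Postn UMIs, 1869 CPM, but were too few to compare the diets. They were also poor in quality, with 17423 UMIs in all in LFD and 9334 in HFD and median mitochondrial shares of 7.24% and 16.1%. Their 3 Acta2 UMIs lay in 1 barcode.

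Postn was the only member that differed between the diets there by more than counting error. Of 8 tested members it was the 1 at least 2-fold higher in HFD, beside 2.88% of 8206 genes, and none was lower, beside 2.49%. It had 211 UMIs in LFD and 891 in HFD, 271 CPM (236 to 310) and 854 CPM (799 to 912), a ratio of 3.15 (2.71 to 3.68). It was seen in 67.3% and 80.6% of barcodes, and in 17.3% and 50.5% after thinning. Col8a1 (10.3 and 12.5 CPM) and Cthrc1 (6.43 and 10.5) did not differ beyond counting error. In these barcodes the immune list summed to 48.9 CPM in LFD and 242 in HFD, the cycling list to 21.9 and 87.2, and the platelet list to 66.9 and 27.8. Over both diets Pf4, which had 10286 UMIs in immune barcodes, had 62 UMIs of the platelet list here and Ppbp 3. The part of these lists in the result was not tested.

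**Figure D5:**
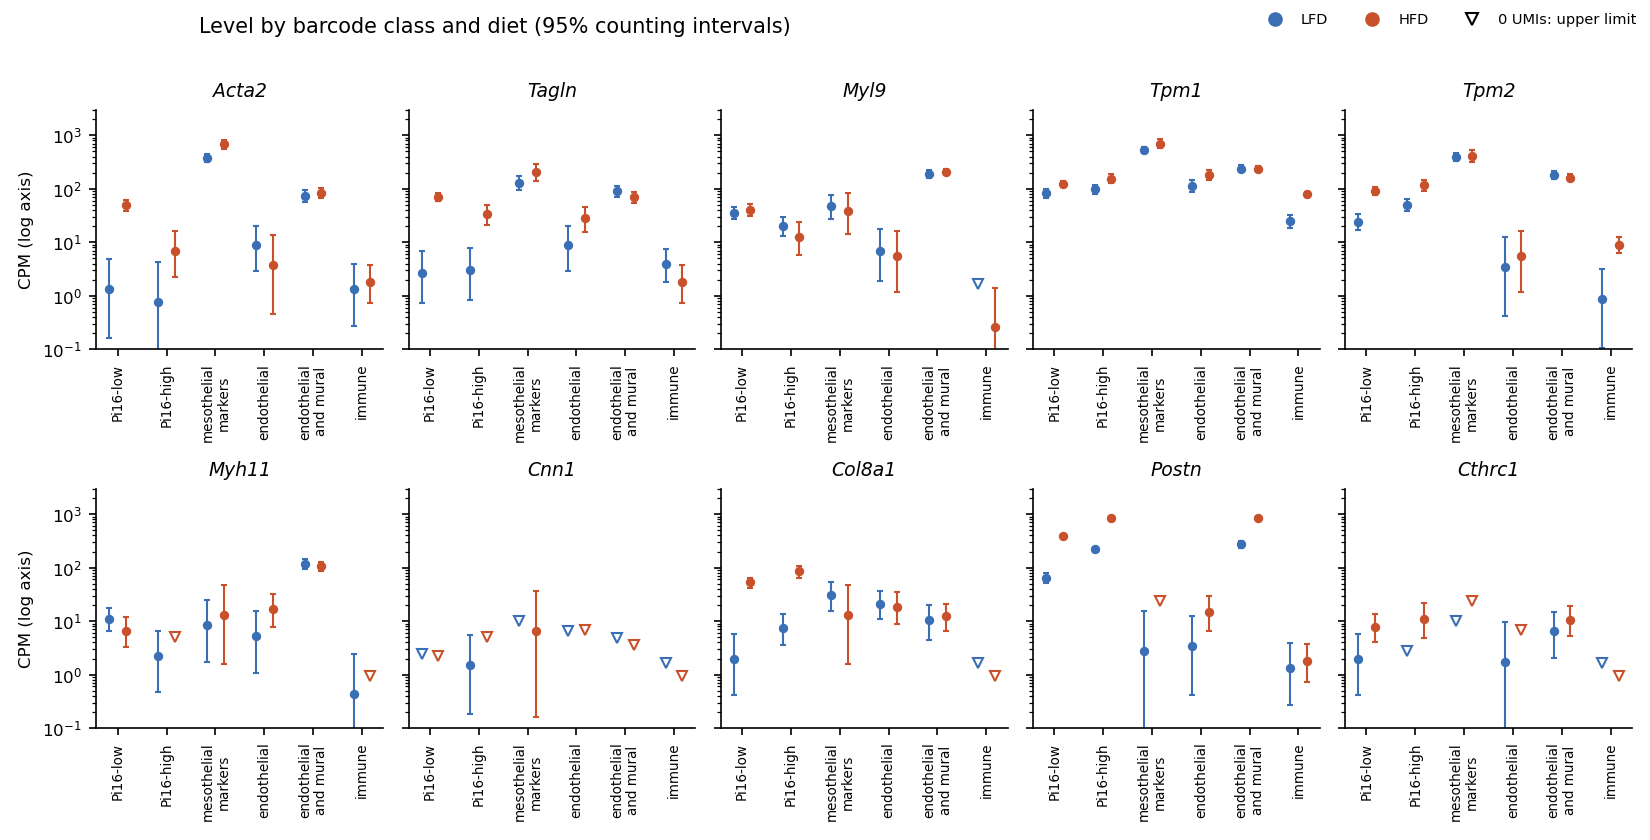
CPM of each gene on a log scale (y axis) by class of barcode (x axis) in LFD (blue) and HFD (red), with 95% Poisson intervals as bars, open triangles for the upper limit where no UMI was found, and Pi16-high fibroblasts without mesothelial-marker barcodes. Acta2 is highest in mesothelial-marker barcodes (369 and 682 CPM), and among the classes plotted, which leave out the 11 mural-only barcodes, Myl9 and Myh11 are highest in endothelial-and-mural barcodes, and Postn in the latter and in Pi16-high fibroblasts in HFD (854 CPM in each).

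Immune barcodes, 365 in LFD and 500 in HFD, held almost none of the members but the tropomyosins. Tpm1 had 56 UMIs in LFD and 307 in HFD, 24.8 CPM (18.7 to 32.2) and 78.4 CPM (69.9 to 87.7), a ratio of 3.16 (2.37 to 4.28), and was seen in 10.7% and 27.6% of barcodes. Tpm2 had 2 and 35 UMIs, 0.886 and 8.94 CPM, a ratio of 10.1 (2.59 to 86.7). These were the 2 members tested there and both were at least 2-fold higher, beside 4.39% of 10010 genes higher and 7.84% lower. Tropomyosins also occur in non-muscle cells, and Tpm1 was seen in endothelial barcodes as well, at 112 CPM in LFD and 180 in HFD.

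Whole libraries pool all classes and the unclassed barcodes. Of 9 tested members Col8a1, Postn and Cthrc1 were at least 2-fold higher in HFD and none lower, beside 2.94% and 6.74% of 12942 genes. Postn had 669 UMIs in LFD and 2538 in HFD (ratio 3.32, 3.05 to 3.62), and Acta2 had 212 and 312 (ratio 1.29, 1.08 to 1.54). In a whole library, more cells of a type and more RNA per cell cannot be told apart.

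Since Myl9 and Postn were both high in endothelial-and-mural barcodes and only Postn differed with diet, their upstream sequences are shown together. RefSeq promoter windows (GRCm38.p6) were used for 7 of the 10 members, 8 in all since Postn had 2, of which the one nearer to the gene is shown. Tagln, Myh11 and Cthrc1 were not searched. For the others the 250 bases upstream of each start were searched on both strands for the CArG box, the binding motif of serum response factor, a regulator of contractile genes, and for CATTCC, the MCAT motif of TEAD factors. Only the strict CArG form was searched, CC and GG around 6 bases of A or T. A box with another base inside would be missed, so a gene without a match can still have one. A CArG box of this strict form was found upstream of Myl9 alone among these, starting 161 bases before the RefSeq start and 117 bases before the GENCODE start of the gene, and 1.47% of 32851 promoters held one. CATTCC was found upstream of Acta2 and Tpm1, and in 12.6% of promoters. Myl9 lies on the plus strand at chr2:156775420-156781658 and Postn at chr3:54361109-54391037 (GRCm38, GENCODE M21), and the bases before each gene, at chr2:156775214-156775419 and chr3:54360857-54361106, read as follows, with the CArG box in capitals and neither motif in the stretch of Postn.
Myl9: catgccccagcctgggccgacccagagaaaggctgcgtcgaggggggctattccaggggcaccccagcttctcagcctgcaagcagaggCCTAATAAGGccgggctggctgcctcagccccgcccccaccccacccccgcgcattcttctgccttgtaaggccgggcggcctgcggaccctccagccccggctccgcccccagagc
Postn: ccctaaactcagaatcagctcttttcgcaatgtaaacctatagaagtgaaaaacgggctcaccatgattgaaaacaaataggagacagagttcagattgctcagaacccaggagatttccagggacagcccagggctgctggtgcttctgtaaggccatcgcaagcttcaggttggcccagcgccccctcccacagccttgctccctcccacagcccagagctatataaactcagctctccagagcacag
A match is a description of the letters and not a bound site. The other members lie at chr19:34241090-34255590 (Acta2), chr9:45929619-45936058 (Tagln), chr9:67022590-67049406 (Tpm1), chr4:43514711-43523765 (Tpm2), chr16:14194535-14291372 (Myh11) and chr16:57624258-57754737 (Col8a1) on the minus strand, and at chr9:22099216-22109630 (Cnn1) and chr15:39076932-39087121 (Cthrc1) on the plus strand.

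Other genes of the contractile machinery differed less between the diets in Pi16-low fibroblasts. Of 27 tested contractile partners 1 was at least 2-fold higher in HFD and 1 lower, with a median log2 ratio of 0.13, a share near that of all 9111 genes (2.94% higher, 4.38% lower, median -0.03). The highest ratios were those of the actin crosslinker Actn1 (10 and 46 UMIs, ratio 4.20), non-muscle myosin Myh9 (1.98) and Synpo2 (1.95), and the lowest those of leiomodin Lmod1 (47 and 18 UMIs, ratio 0.349), Csrp1 (0.542) and the focal adhesion protein Zyx (0.576). Desmin (Des), the muscle intermediate filament, and named after its values were seen, had 184 and 149 UMIs, or 121 and 89.4 CPM.

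More of the matrix partners were higher in HFD. Of 26 tested, 6 were at least 2-fold higher and none lower, with a median log2 ratio of 0.54, beside the same 2.94% and 4.38% of all genes and their median of -0.03. The highest ratios were those of tenascin C (Tnc, none and 40 UMIs, 26 of them in 1 barcode, at least 12.2-fold higher against a floor of 3 UMIs and with an exact lower limit of 9.44), the protease inhibitor Timp1 (65 and 657 UMIs, ratio 9.22) and Ctgf (13 and 41, ratio 2.88), a target of TGF-beta. The collagen Col3a1 (ratio 2.28), the proteoglycan Bgn (2.15) and Sparc (2.09), named after their values were seen, were the others. The lowest ratios were those of Tgfbi (0.509), Inhba (0.988) and Aebp1 (1883 and 2073 UMIs, or 1239 and 1244 CPM). Lrrc15, a marker of activated fibroblasts in tumours, had no UMI in Pi16-low fibroblasts.

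In Pi16-low fibroblasts the regulators tested differed by less than 2-fold. None of 22 tested genes of the TGF-beta and serum response factor pathways was 2-fold higher or lower there, and their median log2 ratio was 0.05. The highest ratios were those of Fhl2 (1.67), Tgfbr1 (1.32) and Pdgfrb (1.29), and the lowest those of Tgfbr3 (0.645), Mkl1 (0.684) and Pdgfra (0.688), the receptor that marks adipose fibroblasts.

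Across 14 points (7 classes in each diet), the genes whose log2 CPM was most like the mean of the contractile genes were Gjc1 (Pearson r = 0.96), Rasl11a, Tbx18, Gucy1a3 and Vstm4, out of 11355 genes. For the matrix genes they were Cald1 (r = 0.89), Aspn, Col6a3, C1qtnf6 and S1pr3 (r = 0.86). Points of 1 library share its depth and classes share their defining genes, so r is a description.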

How the data were processed

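Gene counts were used as deposited, 1 filtered UMI count matrix per library, which the authors made with Cell Ranger (3.0.2 in the matrix headers) on mm10, with no normalization. Both samples were grouped by the diet in their titles and characteristics, since the treatment protocol text names the low-fat diet for both. Barcodes with at least 200 genes were classed by raw UMIs, and class sums were given as CPM with exact 95% Poisson intervals, shares with exact binomial and ratios with exact conditional binomial intervals, which were checked on simulated counts. With 1 library per diet no test was run. Genes with at least 20 UMIs over both libraries counted as tested, and a 2-fold ratio as called. For shares, barcodes were also thinned to 1000 UMIs. Doublets were called with Scrublet (scanpy 1.11.5, expected rate 1%), which marked 1.99% of LFD and 2.33% of HFD barcodes, and were kept in the main values and left out in an alternative. Mesothelial-marker barcodes all passed the Dcn rule, so no exclusive mesothelial class was left.

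The members and gene lists were chosen with earlier results of these data known. All members are named, and of each partner list (31 contractile, 33 matrix and 25 regulator genes, of which 31, 31 and 23 are in the tables) the 3 highest and 3 lowest ratios, and the 5 genes most like each set by Pearson r of log2(CPM + 10). Of the 10 cycling genes listed 9 are in the tables. The gene and mitochondrial limits of the study's methods were an alternative and not the main filter, since they kept 26.4% of LFD and 30.8% of HFD barcodes. Python 3.11.15, numpy 2.4.6, pandas 2.3.3, scipy 1.17.1 and matplotlib 3.10.9 were used.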

Additional observations from a re-analysis of the deposited data

Results flagged for a closer look

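Member UMIs were also found in barcodes with at least 200 genes that met no class rule, 147 in LFD and 85 in HFD, with 373965 UMIs in all, which the comparisons by class do not use. There the counts over both libraries passed the 3 that a count of 0 allows for 8 members. They were 8 UMIs of Acta2 (1 in LFD and 7 in HFD), 12 of Tagln (1 and 11), 4 of Myl9, 41 of Tpm1 (32 and 9), 10 of Tpm2, 6 of Myh11, 8 of Postn (none and 8) and 4 of Cthrc1. Tpm1 was the most abundant at 110 CPM (78.7 to 149), and Acta2 and Postn each stood at 21.4 CPM (9.24 to 42.2). Col8a1 had 2 UMIs there and Cnn1 none.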

How the results depend on the processing

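The main values were a log2 CPM ratio (HFD over LFD, Pi16-low fibroblasts) of 1.29 for the contractile sum and 2.73 for the matrix sum, 5 members at least 2-fold higher, a log2 ratio of mural over Pi16-low barcodes of 3.48 for the contractile sum, and 0.573% of all Acta2 UMIs in mural barcodes. Within the limits of the methods they were 0.24, 0.18, 1 (Col8a1), 4.44 and 0%, and Tpm1 (-0.24), Postn (-0.14) and Cthrc1 (-1.82) turned lower in HFD. Acta2 and Myh11 gave no value there. The mural share of Acta2 was 0% under 10% mitochondrial UMIs and 0% without the barcode with the most UMIs, which put the contractile sum at 1.01. Keeping barcodes of 2 classes in each gave 32.4% and a mural ratio of 1.47. The mean CPM of barcodes gave 0.88, 2.11 and 4.58 for both diet ratios and the mural ratio. In alternatives added after the data were seen, the contractile sum was 0.92 without cycling barcodes and 0.97 without mesothelial-marker and cycling barcodes. Apart from these constructions the causes were not tested. The other 38 values of these results moved by less than their counting interval or 1.5 times. Of the log2 diet ratios of single members 87 moved by less than the main counting interval, 7 by more and 3 turned, 17 shares of barcodes moved by more with thinning, which lowers them by construction, and Acta2 ranged from 2.45 to 6.26. No paired analysis was possible because each diet had 1 library. The Acta2 ratio rests on 2 UMIs in LFD and on 1 barcode with 62 of 82 UMIs in HFD (2.84 without cycling barcodes, against 5.23), and Cnn1 was not measurable at this depth.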
